A study of Arabidopsis thaliana with 6 samples.

Results

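XTH18 (AT4G30280) and XTH19 (AT4G30290) are 2 genes of the XTH family, whose products cut and rejoin xyloglucan in the plant cell wall. They were chosen by their measured signals, as related cell wall genes that differ in opposite directions between the glc, DOG and zer arrays of this series. They are 2 of 13356 genes with a probe set annotated to that gene alone, and 2 of 10 such genes of the XTH family. Each of them was read by 1 probe set.

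The arrays carried RNA of whole Arabidopsis thaliana seedlings of the accession Col-0 at growth stage 1.02. All were cold-stratified for 72 h at 4 °C and raised at 23 °C without a dark period. The medium was agar (0.8%) with Murashige and Skoog salts of reduced strength. There was 1 array for each of the 6 groups, titled wat, glc, OMG, DOG, man and zer. The labels give the same growth conditions for all 6, list no other treatment, dose or duration for any of them, and do not spell the titles out. From the series title, which names glucose analogs that plants do not metabolise, glc is taken to mean glucose, and OMG and DOG to be analogs. A publication related to this series used 3-O-methylglucose and 6-deoxyglucose, and the reading of OMG and DOG rests on knowledge of it. The titles wat, man and zer are used as given. With 1 array a group there is no spread between replicates, so no test was made, and every difference below describes 6 single arrays.

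Xyloglucan is a hemicellulose that coats and links cellulose microfibrils in the primary wall of growing plant cells. Enzymes of the XTH family cut a xyloglucan chain and join the new end to another chain (transglucosylation) or to water (hydrolysis), and are known for their part in wall loosening and wall strengthening as cells expand. XTH18 and XTH19 lie next to each other on chromosome 4, with no annotated protein-coding gene between them. Together with XTH17 and XTH20 they form a group of closely related genes known for expression in Arabidopsis roots.

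XTH18 was highest in the DOG array and lowest in zer. Its signal, a linear value made with MAS5 and scaled to the same mean on each array, was 578.9 in DOG, 252.2 in OMG, 215.1 in man, 163.1 in wat, 103.9 in glc and 75.8 in zer. All 6 signals lay above the median of their array, which ran from 40.2 (OMG) to 43.2 (zer). From the highest array to the lowest the difference was 7.64-fold. The widest step between arrays next to each other in this order was that from DOG to OMG, at 2.30-fold. The other steps were 1.17-fold from OMG to man, 1.32-fold from man to wat, 1.57-fold from wat to glc and 1.37-fold from glc to zer. No spread is known against which to set these smaller steps.

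XTH19 was highest in glc and zer and lowest in wat. Its signal was 82.1 in glc, 75.6 in zer, 51.4 in DOG, 38.3 in man, 34.6 in OMG and 25.3 in wat. In glc, zer and DOG it lay above the median of the array. In man and OMG it lay below the median, and in wat it lay below the floor of 28.6, the 40th percentile of that array, to which dimmer signals were raised. The signals in glc and zer were 1.09-fold apart. The further steps down the order were 1.47-fold from zer to DOG, 1.34-fold from DOG to man, 1.11-fold from man to OMG and at least 1.21-fold from OMG to wat. From glc to wat the difference was at least 2.87-fold.

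The arrays ordered by XTH18 signal stood in exactly the reverse order of their actin 3' to 5' ratio, which is higher where the control transcript was labelled less fully towards its 5' end. It was 7.48 in zer, 6.41 in glc, 4.66 in wat, 4.55 in man, 4.03 in OMG and 3.46 in DOG. The arrays with the highest ratios, zer and glc, were those with the lowest XTH18 and the highest XTH19. The ratio of the GAPDH control ran in a different order, with 1.38 in zer, 1.35 in both man and OMG, 1.31 in DOG, 1.26 in glc and 1.21 in wat. The part of RNA quality in the levels of XTH18 and XTH19 was not tested.

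**Figure D1:**
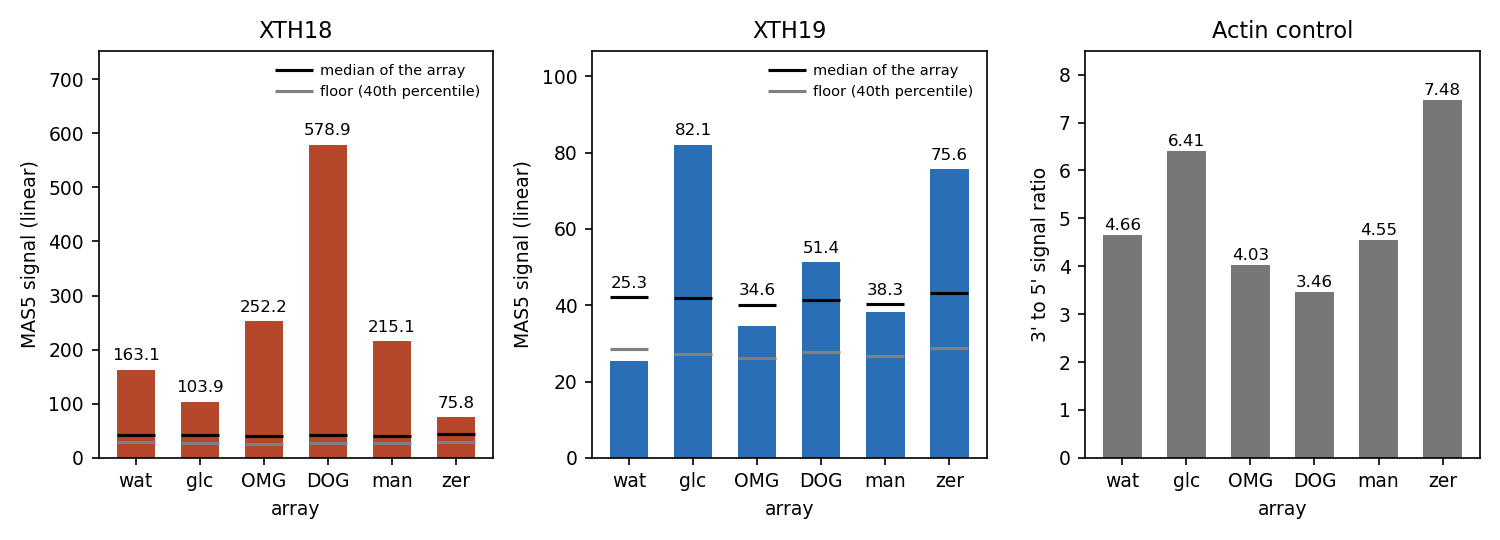
Signals of XTH18 (left) and XTH19 (middle) on the 6 arrays on a linear scale, 1 bar per array, with the median (black line) and the floor (grey line) of each array, and the 3' to 5' signal ratio of the actin control (right). XTH18 stands at 578.9 in DOG and at 252.2 or lower elsewhere, XTH19 stands at 82.1 in glc and 75.6 in zer and at 51.4 or lower elsewhere, and the actin ratio is highest in zer and glc.

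Against wat, XTH18 was higher on the 3 arrays OMG, DOG and man and lower on glc and zer. A probe set entered a comparison when it reached the median of the array on at least 1 of the 2 arrays, and it was counted as called when it was at least 2-fold apart. In DOG, XTH18 was 3.55-fold higher than in wat, in a comparison where 0.219% of 11887 probe sets were called. No other probe set had as large a difference in that direction. As the genes were chosen by their DOG, glc and zer signals, this and the counts below are a description. In zer it was 2.15-fold lower, with 1.68% of 12027 probe sets called. Adding 16 to all signals in place of the floor brought this difference to -0.96 on the log2 scale, under 2-fold. In glc it was 1.57-fold lower, in a comparison where 2.42% of 12042 probe sets were called and 606 others were as far or farther apart in that direction. In OMG it was 1.55-fold higher, with 0.151% of 11910 called and 89 others as far apart. In man it was 1.32-fold higher, with 0.403% of 11910 called.

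XTH19 was higher than in wat on all 5 other arrays. All 5 folds are lower bounds, because wat was at the floor, and the counts of other probe sets beside them are taken at the bound and are not exact ranks. In glc it was at least 2.87-fold higher, and 4 other probe sets differed by as much or more in that direction. In zer it was at least 2.64-fold higher, and 25 others differed by as much. In DOG it was at least 1.80-fold higher, with 38 others as far apart. Without the floor, or with the floor at the 20th percentile, the DOG difference was 1.02 on the log2 scale and passed 2-fold. In OMG and man the differences were at least 0.27 and at least 0.42 on the log2 scale. XTH19 did not pass the filter in those comparisons, because neither of the arrays reached its median. Since these comparisons all use the single wat array, a low reading of XTH19 in wat raises every one of them.

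Comparisons that leave wat out are given next for XTH18. Those among DOG, glc and zer are the ones by which the genes were chosen. Every comparison that uses one of these arrays shares those signals and is given as a description. DOG exceeded glc by 5.57-fold, with 2.53% of 12016 probe sets called and 10 others as far apart in that direction. Against zer the DOG signal was 7.64-fold higher, with 1.98% of 11998 called and no other probe set as far apart. OMG exceeded glc by 2.43-fold (2.48% of 11997 called) and zer by 3.33-fold (1.83% of 11969 called). The man array exceeded glc by 2.07-fold (4.39% of 12081 called) and zer by 2.84-fold (3.51% of 12063 called). With 16 added to all signals in place of the floor, man against glc was 0.95 on the log2 scale, under 2-fold. Between glc and zer the difference was 1.37-fold, with 1.78% of 12036 called. XTH18 was lower in glc and zer than on each of the other 4 arrays.

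The analog arrays were then compared directly. XTH18 read 578.9 in DOG and 252.2 in OMG, 2.30-fold higher in DOG, in a comparison where 0.0845% of 11833 probe sets, or 10 in all, were called. No other probe set was as much higher in DOG than in OMG. XTH19 read 51.4 in DOG and 34.6 in OMG, 1.49-fold higher in DOG, with 164 others as far apart in that direction. The labels give no dose or time for either analog, so the values stand side by side and give no comparison at a matched dose. No interval can be set on a difference between single arrays. Against man, DOG was 2.69-fold higher for XTH18, with 0.337% of 11875 called, and 1.34-fold higher for XTH19. OMG and man were 1.17-fold apart for XTH18, with 0.286% of 11892 called.

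For XTH19 the comparisons without wat that reached 2-fold all set glc or zer against OMG or man. It was 2.37-fold lower in OMG than in glc, 2.18-fold lower in OMG than in zer and 2.14-fold lower in man than in glc. It was 1.97-fold lower in man than in zer. DOG was 1.60-fold lower than glc and 1.47-fold lower than zer. These 2 values show that between the arrays by which the genes were chosen, the opposite movement of XTH19 stayed under 2-fold, while XTH18 differed by 5.57-fold and 7.64-fold. Between glc and zer the genes did not differ in direction, as both were higher in glc. With 16 added to all signals in place of the floor, XTH19 stayed under 2-fold in each of the comparisons without wat, at -0.96 (OMG against glc), -0.86 (OMG against zer) and -0.85 (man against glc) on the log2 scale.

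Set side by side over the 15 pairs of arrays, XTH18 and XTH19 differed in opposite directions in 9 pairs and in the same direction in 6. The 8 pairs that join glc or zer to one of the other 4 arrays were all opposite, and the ninth was OMG against man, where both differences were small (0.23 for XTH18 and -0.15 for XTH19 on the log2 scale). The 8 are not separate observations, as glc and zer held the lowest XTH18 and the highest XTH19. They include DOG against glc and DOG against zer, by which the genes were chosen. Among wat, OMG, DOG and man, the genes otherwise differed in the same direction, and both were highest in DOG. The log2 difference of XTH18 exceeded that of XTH19 by 3.15 in DOG against glc and by 3.49 in DOG against zer. In glc against wat this excess was -2.17 or lower, and in zer against wat -2.51 or lower, both bounds because XTH19 in wat was at the floor. Without the floor they were -2.35 and -2.68. In 4 pairs both genes were at least 2-fold apart in opposite directions, namely zer against wat, OMG against glc, OMG against zer and man against glc. With 16 added to all signals this held for 0 pairs, although the directions were opposite in 9 pairs under that setting too. XTH18 was at least 2-fold apart in 10 of the 15 pairs and XTH19 in 5, of the 12 pairs in which XTH19 passed the filter.

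**Figure D2:**
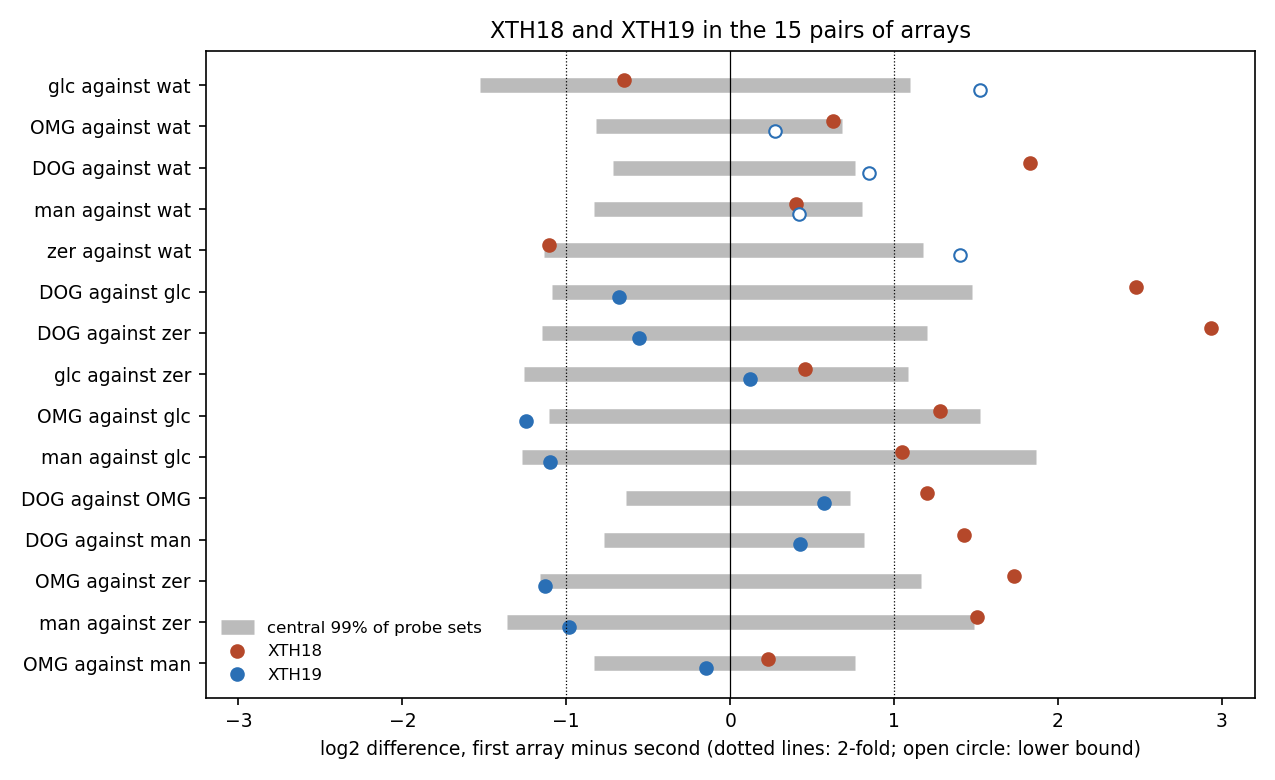
Log2 differences of XTH18 (red) and XTH19 (blue) for the 15 pairs of arrays, first array minus second, with the central 99% of all probe sets of each comparison as grey bars, 2-fold as dotted lines and open circles for lower bounds. XTH18 lies right of the bar in all 5 comparisons of DOG with another array, and XTH19 lies right of the bar in glc, DOG and zer against wat.

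Among the 12723 probe sets at or above the median on at least 1 array, XTH18 was the single one whose DOG signal was at least 2-fold above each other array. The same count was 0 for wat, 0 for OMG, 7 for man, 18 for glc and 31 for zer. DOG was at least 2-fold above both glc and zer in 50 probe sets, XTH18 included. For XTH19, glc and zer were both at least 2-fold above wat, a pattern shared by 7 probe sets in all. A span over the 6 arrays wider than that of XTH18 was found in 13 probe sets, and one wider than that of XTH19 in 221. The span of XTH19 is a lower bound, because wat was at the floor, so 221 is not an exact rank. Signals of glc and zer both below all other arrays, as for XTH18, were common, at 2013 probe sets (15.8%), and both above all others, as for XTH19, at 2338 (18.4%). The full order of the 6 arrays seen for XTH18 was found in 23 other probe sets, its reverse in 22, and the full order seen for XTH19 in 38. These counts describe the arrays by which the genes were chosen and support nothing further.

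Each difference was also read among the probe sets nearest in mean signal, with the differences of XTH19 from wat again taken at their bounds. The DOG, glc and zer signals are those by which the genes were chosen, so these counts are a description and support nothing further. For XTH18 in DOG against wat, 0 of 999 others were as much higher. For XTH19 in glc against wat, 1 of 999 others was as much higher, and in zer against wat 2 of 999. For XTH19 in DOG against wat the count was 9 of 999, and for XTH18 in zer against wat 9 of 999 were as much lower.

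The other members of the XTH family were measured in part. Of the 33 listed XTH genes, 10 had a probe set annotated to them alone, and 8 of these are not XTH18 or XTH19. A gene is called measured here only when it had such a probe set. Other genes may be on the array under probe sets with several gene names or none. In each comparison with wat 3 of the 8 passed the filter, and 0 of the 3 were called in either direction, where 0.151% (OMG) to 2.42% (glc) of all probe sets were called. Their median log2 difference was 0.01 in glc, beside 0.02 over all probe sets tested, 0.05 beside 0.00 in DOG and -0.30 beside -0.02 in man. XTH32 was higher in glc (269.3) and zer (265.4) than in wat (192.9), OMG (177.2), DOG (177.0) and man (156.9), the same split of arrays as XTH19, over a span of 0.78 on the log2 scale. XTH27, listed under its older name EXGT-A3, was lower in glc (582.8) and zer (611.4) than in wat (728.5), OMG (769.5), man (814.1) and DOG (828.0), the same split as XTH18, over a span of 0.51. Both splits were common among the 12723 probe sets at or above the median on at least 1 array. That of XTH19 was found in 18.4% and that of XTH18 in 15.8%. XTH16 ran from 192.6 in man to 255.5 in zer.

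XTH20, which is close to XTH18 and XTH19 in sequence, was dim. It read 41.7 in glc, 33.8 in DOG and 31.7 in man, and 25.5 in zer, 25.2 in wat and 16.8 in OMG, the last 3 of which were at or under the floor. XTH33 was above the floor on 1 array, glc, at 36.6, and read 11.5 in wat, so the floor bounds its difference. XTH21, XTH26 and XTH29 were under the floor on all 6 arrays. For the other XTH genes, XTH17 and XTH24 among them, no probe set used here is annotated to that gene alone. XTH24 is the next annotated gene on the other side of XTH18. The probes of related XTH genes were not compared, so signal shared between XTH17, XTH18, XTH19 and XTH20 was not tested.

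The 13 listed names for the making of xyloglucan matched 12 genes. Of these 4 were measured, all of the CSLC family of glucan synthases that build the xyloglucan backbone. In each comparison with wat 3 of the 4 passed the filter, and 0 of the 3 were called, where 0.151% (OMG) to 2.42% (glc) of all probe sets were called. CSLC4 read 216.0 in glc, 206.5 in zer, 195.4 in DOG, 194.3 in OMG, 172.7 in man and 172.5 in wat, highest in the arrays where XTH19 was highest. That split was found in 18.4% of the 12723 probe sets at or above the median on at least 1 array. CSLC6 ran from 44.7 in man to 72.7 in zer, CSLC5 from 88.7 in man to 109.4 in OMG, and CSLC12 was above the floor on 1 array. The 4 listed names of xyloglucan trimming matched 3 genes, the 17 of cellulose synthesis 13 and the 22 of wall structural proteins 20. None of these genes had a probe set annotated to it alone, so their levels were not read.

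Expansins, which loosen the wall without cutting xyloglucan, and the related expansin-like genes fell into several patterns. The 36 listed names matched 34 genes, of which 18 were measured. In zer against wat 1 of the 8 that passed the filter was called as higher, beside 103 of all 12027 probe sets. In man against wat 1 of 8 was called as lower, beside 19 of 11910. The shares called in either direction were 1.68% in zer and 0.403% in man. EXLA1, an expansin-like gene, read 386.9 in DOG, 276.3 in OMG, 262.6 in man, 228.6 in wat, 200.4 in zer and 147.4 in glc. Its highest array and the low level of glc and zer were those of XTH18, over a span of 2.62-fold. EXLA2 (45.1) and EXLB1 (86.3) were also highest in DOG, with spans of 0.65 and 0.51 on the log2 scale. Both fall outside the naming rule and were added after their values were seen. Neither was low in both glc and zer as XTH18 was. EXLA2 read 29.0 in glc, 35.9 in zer and 28.7 in wat. EXLB1 read 60.8 in glc, 74.8 in zer and 68.6 in wat. The alpha-expansin gene EXPA8 had another pattern, with 201.8 in zer and between 65.5 and 85.3 on the other 5 arrays. EXPB3, a beta-expansin gene, read 124.8 in zer and 39.6 in man, and EXPA15 read 157.9 in wat and 70.6 in man.

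The 21 listed pectin names matched 15 genes, of which 3 were measured. ATPMEPCRB, a pectin methylesterase gene, read 143.9 in glc, 88.7 in man, 79.8 in zer, 66.6 in DOG, 63.1 in wat and 58.1 in OMG. It shared its highest array with XTH19 but was not high in zer. PME61 ran from 25.7 in man to 41.8 in zer, and ADPG1 was under the floor throughout.

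Touch and calcium genes were read because XTH22, another XTH gene, is the classical touch gene TCH4. The 11 listed names matched 9 genes. Of these 4 were measured, and 2 of the 4 passed the filter. Against wat, 1 of the 2 was called as higher in DOG, beside 16 of all 11887 probe sets, and 1 as higher in man, beside 29 of 11910. Both were called as lower in zer, beside 99 of 12027. The shares called in either direction were 0.219% in DOG, 0.403% in man and 1.68% in zer. CML41, a calmodulin-like calcium sensor gene, read 145.1 in DOG, 143.9 in man, 104.5 in OMG, 68.7 in glc, 60.6 in wat and 25.2 in zer, the last under the floor. STZ, a zinc finger gene of stress responses, read 198.8 in man, 172.3 in DOG, 164.6 in OMG, 141.3 in wat, 87.9 in glc and 67.8 in zer. Like XTH18, both were higher in DOG and OMG than in wat and lowest in zer, but for both man stood close to DOG or above it. CML37 and CML38 were under the floor on all arrays. The 19 listed names of auxin and brassinosteroid growth matched 18 genes, of which 2 were measured. GH3.3 read between 34.6 and 45.6, and IAA29 was above the floor on 1 array, glc, at 31.6.

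**Figure D3:**
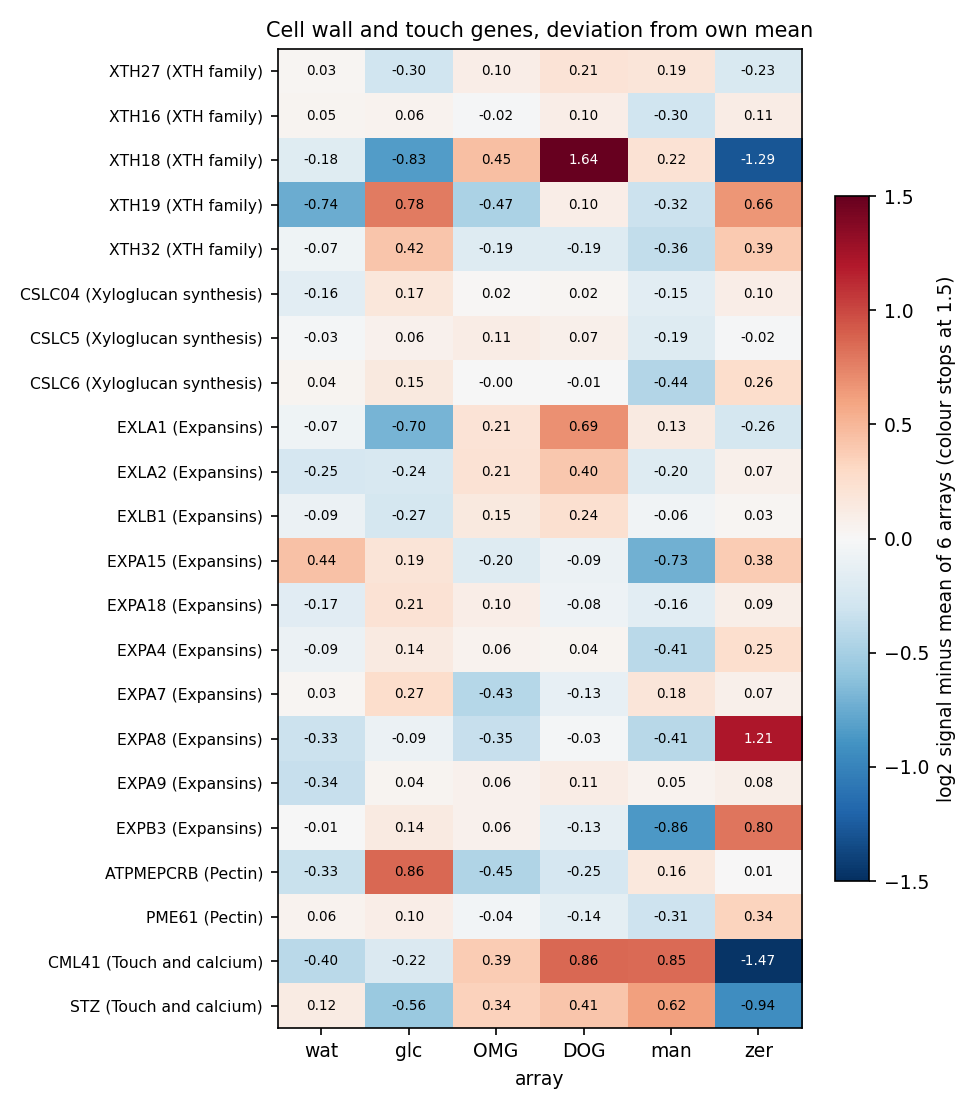
Log2 signal minus the gene's mean over the 6 arrays for measured cell wall and touch genes above the floor on at least 5 arrays, with the array on the horizontal axis and the list of each gene in brackets. XTH18 and EXLA1 have their highest value in DOG, XTH19, XTH32 and CSLC4 have theirs in glc, and EXPA8 and EXPB3 have theirs in zer.

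The genes whose pattern was most like that of XTH18 were found by Pearson's r of log2 signal over the 6 arrays, among 1056 other probe sets that reached the median on at least 1 array and spanned at least 2-fold. These values share the 6 arrays and their scaling, and are given as a description. Of the 1056, 12 had an r of 0.9 or more with XTH18, and 7 of these were annotated to a single gene. The first was AT2G36630 (r = 0.957), which read 215.7 in DOG, 155.4 in wat and 94.2 in zer. AT1G19380 (r = 0.936) read 691.3 in DOG and 293.1 in zer. EXO (r = 0.935), the EXORDIUM gene of brassinosteroid-promoted growth, read 1032.4 in DOG, 825.3 in man, 820.4 in OMG, 721.5 in wat, 415.6 in glc and 380.2 in zer. AT1G28260 (r = 0.925) and AT3G50570 (r = 0.919) came next, followed by WRKY22 (r = 0.909) and EXLA1 (r = 0.902). WRKY22 falls outside the naming rule and was added after its values were seen. The spans of the first 5 ran from 2.08-fold to 2.72-fold, well under the 7.64-fold of XTH18.

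For XTH19, 18 of the 1056 had an r of 0.9 or more, of which 11 were annotated to a single gene. AT1G30440 (r = 0.968) read 92.4 in glc, 92.8 in zer and 45.9 in wat. AT5G65860 (r = 0.968) read 180.2 in glc, 138.0 in zer and 82.4 in wat. AT1G34350 (r = 0.947), AT3G19400 (r = 0.929) and AT2G25530 (r = 0.928) were the next 3. The r between XTH18 and XTH19 themselves was -0.46. With Spearman's rho in place of r, 2 of the 5 genes named for XTH18 and 2 of the 5 named for XTH19 were again among the first 5. Without the DOG array 1 of the 5 was again among the first 5 for XTH18, and without the glc array 1 of 5 for XTH19, so the choice of names rests on single arrays.

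**Figure D4:**
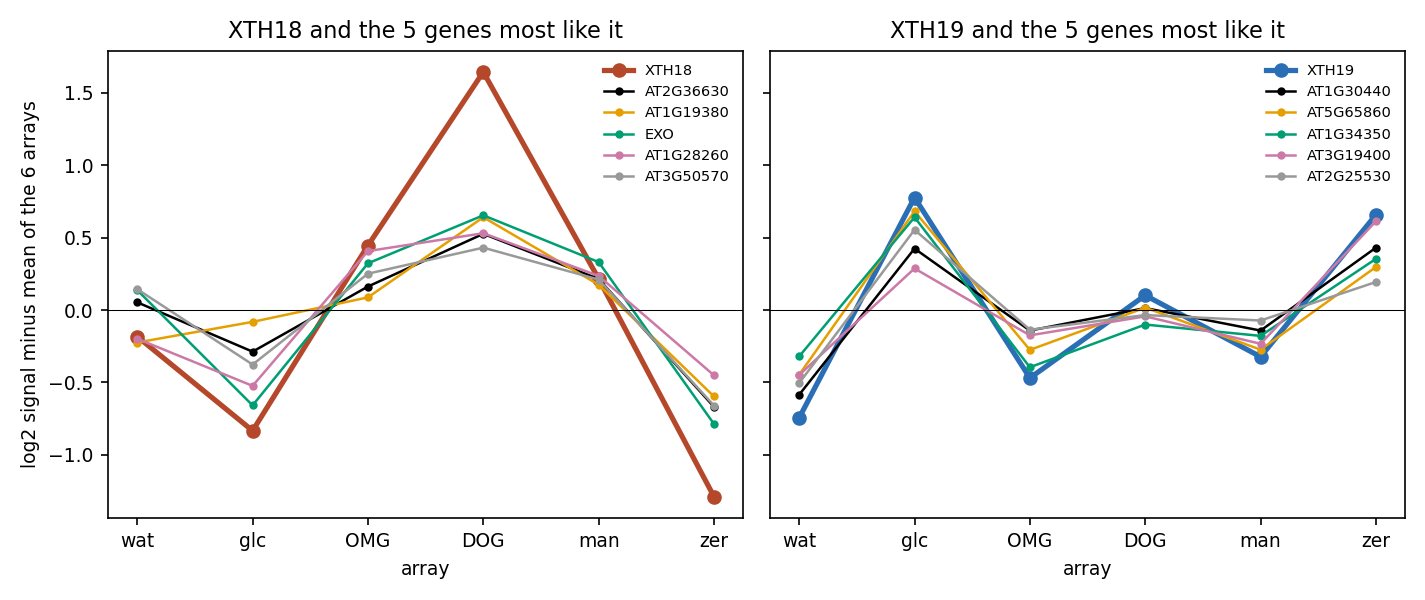
Log2 signal minus the mean of the 6 arrays for XTH18 (left, red) and XTH19 (right, blue) with the 5 genes of highest r, by array. The genes like XTH18 have their highest value in DOG and their lowest in zer or glc with narrower spans, and those like XTH19 are high in glc and zer.

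The genes around the pair on chromosome 4 were read next, as the 5 nearest annotated genes on each side that had a probe set of their own. Of these 10 neighbours, 5 were under the floor on all 6 arrays, 5 were above it on all 6, and 1 spanned 2-fold. AT4G30330, 4 genes beyond XTH19, read 91.7 in glc, 86.3 in zer, 62.8 in DOG, 55.7 in man, 55.6 in OMG and 51.3 in wat. That is the same order of arrays as XTH19, over a span of 1.79-fold, with r = 0.980 over the 6 arrays. The full order was found in 38 probe sets other than XTH19. Its split of glc and zer from the rest was found in 18.4% of the 12723 probe sets at or above the median on at least 1 array. Shared regulation of these neighbours was not tested. AT4G30390, 10 genes beyond XTH19, ran from 73.0 in zer to 110.2 in man. AT4G30150, the neighbour with the 2-fold span, ran from 51.5 in zer to 103.0 in glc. AT4G30170, a peroxidase gene, ran from 183.1 in man to 292.0 in glc, and AT4G30310 from 204.0 in man to 276.1 in wat. None of the 5 neighbours above the floor had its highest signal in DOG.

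Since XTH18 and XTH19 are known as root genes, root and green tissue markers were read beside them. In whole seedlings, fewer cells of a type and less RNA per cell cannot be told apart. The 21 listed root marker names matched 19 genes, of which 3 were measured. PYK10, a root beta-glucosidase gene, read between 2637.8 in man and 3311.3 in zer. EXPA18, an expansin gene of root hair cells, read 44.9 in glc, 41.6 in OMG, 41.3 in zer, 36.7 in DOG, 34.7 in man and 34.5 in wat. EXPA7, also of root hair cells, ran from 28.4 in OMG to 46.0 in glc, and XTH26, the third measured gene of 15 on the root hair list, was under the floor on all arrays. Summed over the root markers, the signal was highest in zer at 3392.7, followed by glc at 3106.7 and OMG at 3079.9, and lay between 2715.9 and 2861.7 on the other 3 arrays. It was 2837.4 in DOG, where XTH18 was highest, and 2861.7 in wat. PYK10 made up 2765.7 of the sum in DOG and 2788.2 in wat, so the sum is nearly that gene alone. The 23 listed green tissue marker names matched 21 genes, of which 4 were measured. The summed signal of the 4 ran from 9359.2 in glc to 11160.7 in zer. No marker of either kind that passed the filter was called against wat. All 4 green tissue markers passed in each comparison, but of the 3 root markers 1 passed in DOG and in zer, 2 in OMG and in man and 3 in glc. The shares of all probe sets called against wat were 0.219% in DOG, 1.68% in zer, 0.151% in OMG, 0.403% in man and 2.42% in glc.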

How the data were processed

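The deposited tables give 1 linear signal intensity per probe set, calculated by MAS5 according to the submitters' processing notes (its version is not given in the sources used here). On each of the 6 arrays the mean signal, after trimming 2% at each end, was 100, so a change shared by most transcripts cannot be seen. Of 22810 probe sets, 64 controls were left out. A single gene was named for 13513 of the rest, of which 13436 matched a RefSeq gene table (TAIR10.1), used for names, chromosome and neighbours. Several genes were named for 503, and 8730 were left without a gene name. Groups came from the sample titles.

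For each array the 40th percentile served as a floor for dimmer signals, and folds that involve it are written as at least N-fold. A probe set was compared when at or above the median on at least 1 of the 2 arrays and called when at least 2-fold apart. With 1 array per group there is no test, p-value or error, and the number of arrays limits the precision.

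The genes and lists were chosen with earlier results of these data known. The text names every measured XTH gene, the 5 genes most like each by Pearson's r, up to 4 measured members of each list with the widest span, and the nearest 5 measured neighbours on each side. Any other gene was named after its values were seen. Listed names were matched by symbol or synonym. Names of the same gene were counted once, and names without a single matching gene were left out. Alternatives were other floors, equal medians, quantile normalization, a pseudocount of 16, other filters, and for likeness Spearman's rho and each array left out. The calculations used Python 3.11.15, numpy 2.4.6 and pandas 2.3.3, and were tested on simulated data. The simulation planted large changes in bright probe sets only, so it did not check small differences or dim signals.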

Additional observations from a re-analysis of the deposited data

How the results depend on the processing

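The direction of XTH18 and of XTH19 was the same under each of the 5 alternative floors, scalings and pseudocounts wherever a difference reached 2-fold. Of the 75 alternative values of XTH18, 73 stayed on the same side of 2-fold, and of the 75 of XTH19, 70 did. The settings that change only the floor could not move XTH18, which lay above the floor on every array. For XTH19 they could move only the pairs with wat. Those fixed values are part of the tally and say nothing about stability. With 16 added to all signals and no floor, XTH18 was -0.96 (log2) in zer against wat and 0.95 in man against glc. Under that setting the 2 genes were both 2-fold apart in opposite directions in 0 pairs in place of 4. The excess of XTH18 over XTH19 in DOG against wat then passed 2-fold at 1.03. XTH19 in DOG against wat passed 2-fold at 1.02 with no floor or with the floor at the 20th percentile. A pseudocount shrinks the differences of dim probe sets by its construction, and a floor bounds them.

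Counts of called probe sets moved more. With no floor, and likewise with the floor at the 20th percentile, they were 45 in OMG against wat, 45 in DOG against wat, 75 in man against wat and 25 in DOG against OMG. With the median required on both arrays they were 3 in OMG, 8 in DOG, 26 in man and 130 in zer, each against wat, 156 in DOG against zer, 121 in glc against zer and 5 in DOG against OMG. With 16 added they were 192 in glc, 15 in DOG, 24 in man and 129 in zer, each against wat, 200 in DOG against glc, 154 in DOG against zer and 138 in glc against zer. The 5 genes named as most like XTH18 kept an r of 0.847 or more with any 1 array left out, and those like XTH19 of 0.893 or more. Low signal limits XTH19 most, as wat was at the floor and OMG and man were under the median. No paired analysis was possible because each group has 1 array.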
